A study of Homo sapiens with 22 samples.

Results

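SK-MEL-28 is a human cell line from a malignant melanoma, and these results describe its transcript levels after exposure to Amblyomin-X. Amblyomin-X is a recombinant protein of the Kunitz inhibitor family that was found in a tick. The comparison was made up of every array labelled SK-MEL, 10 of the 22 arrays in the series, and no measured value was used to choose them. Of these, 5 arrays came from cells given 1 µM Amblyomin-X for 4 h and 5 from untreated cells grown in the same serum-containing medium. The other 12 arrays came from the pancreatic tumour line Mia-PaCa-2, with 6 treated and 6 untreated, and served only for comparison. The arrays were hybridized with independent cRNA, but no source used here ties the cRNA to separate cultures. The errors and p-values cover only how far these arrays spread, which may be technical. All SK-MEL-28 arrays stand for 1 cell line.

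Kunitz inhibitors are small, disulphide-bonded proteins that block serine proteases by inserting a loop into the active site, and tick saliva holds many that keep host blood from clotting. The series title names genes of the cell cycle and protein degradation by ubiquitin and the proteasome as the processes of interest. In the second of these, E1, E2 and E3 enzymes attach ubiquitin to proteins, deubiquitinases take it off, and the proteasome degrades the tagged proteins. The timing of cyclin destruction, and with it passage through the cell cycle, depends on this system. The MAP kinase pathway carries growth signals in melanoma, where mutant BRAF often drives it, and dual-specificity phosphatases such as DUSP6 are induced by the pathway and restrain it.

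Levels are given as log2 of the authors' normalized intensity, and a change is treated minus untreated on that scale with its standard error (SE) after ±. The deposited values covered 7975 probes in SK-MEL-28, and 7972 of them could be fitted with the replicate number as a pair. The median intensity of an array before normalization lay between 55.4 and 165. The number of arrays limits the precision of each value.

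The arrays did not all look alike, and the split bears on every result. The 3 arrays untreated 1, untreated 3 and treated 1 correlated with each other at a Spearman's rho of 0.909 to 0.941 over the 7810 probes with a value on all 10 arrays. The 5 arrays with the numbers 2, 4 and 5 other than treated 5 correlated with each other at 0.837 to 0.902. Between these sets the correlation was 0.714 to 0.836. The arrays numbered 1 and 3 also had a higher brightest signal before normalization, 24899 to 32409, against 6140 to 12415 on those numbered 2, 4 and 5. Each set holds treated and untreated arrays, so that every pair lies within a set by its number.

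Treated arrays 3 and 5 stood apart from both sets. By least squares over the 5195 probes with a value on all 22 arrays, each array was split into the mean profile of its own line and that of the other. Mia-PaCa-2 took a weight of 0.588 on treated array 3 and 0.595 on treated array 5, against -0.0215 to 0.0480 on the remaining 8 arrays of SK-MEL-28. The own profile of SK-MEL-28 took a weight of 0.433 on treated array 3 and 0.481 on treated array 5, against 0.925 to 1.00 on those 8. Both arrays carried a large share of the profile of the other line, and nearly every result below is given for all 5 pairs and again for pairs 1, 2 and 4. Why these arrays look as they do was not tested.

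**Figure D1:**
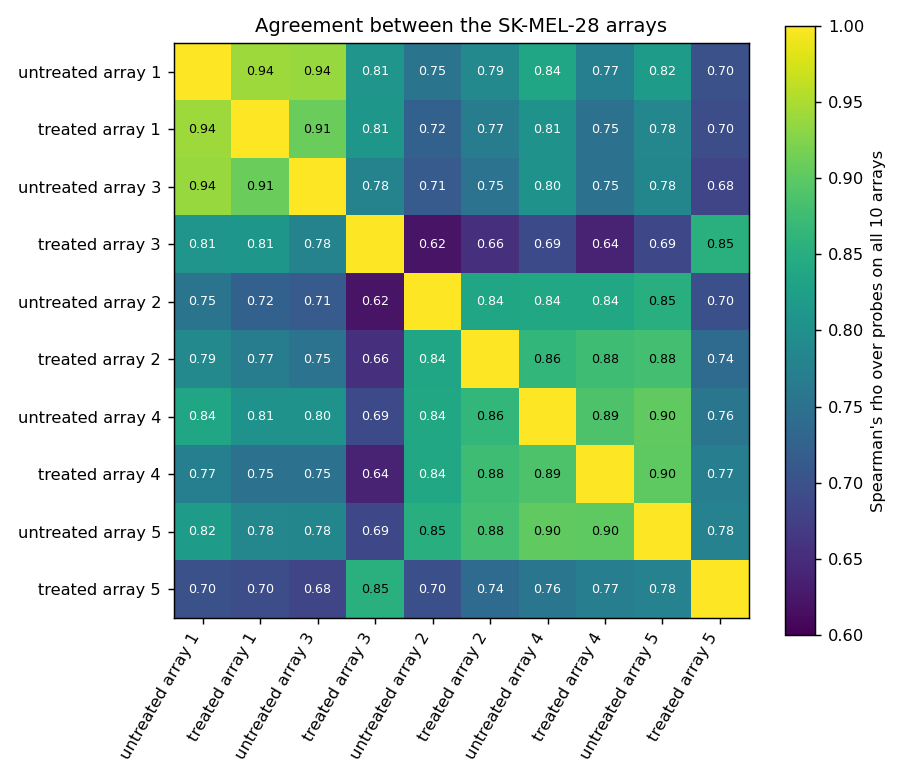
Spearman's rho between each 2 of the 10 SK-MEL-28 arrays, over 7810 probes. Arrays numbered 1 and 3 are drawn first and those numbered 2, 4 and 5 second. Treated array 3 correlates at 0.778 to 0.811 with the arrays numbered 1 and 3 and at 0.621 to 0.690 with those numbered 2, 4 and 5, and treated array 5 at 0.684 to 0.700 and 0.698 to 0.778.

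Probe names were checked against genes that nearly all cultured cells express strongly. Of 46 such housekeeping genes 12 had a probe here, and their median rank on an array ran from percentile 62.6 on untreated array 2 to percentile 97.9 on treated array 3. On 1 of 10 arrays the median lay under percentile 75. Some of these probes were bright and others were dim. The probe annotated to GAPDH, a glycolytic enzyme, lay between 10.46 and 13.50 on all 10 arrays. That annotated to HSPA8, the constitutive HSP70 chaperone, lay at 5.90 to 8.59 on the 8 arrays, at 12.54 on treated array 3 and at 13.33 on treated array 5, with a median of 13.62 in Mia-PaCa-2. On those 8 arrays the HSPA8 probe had a mean rank of percentile 69.95, above the middle. It was much brighter on treated arrays 3 and 5 and in Mia-PaCa-2. The nucleolar chaperone NPM1 lay at 4.81 to 6.18 on the 8 arrays, below the array median of 6.61, and at 8.04 and 7.18 on treated arrays 3 and 5. The NPM1 probe was dim in Mia-PaCa-2 too, with a median of 6.14 there.

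The median of the 22 measured cytosolic ribosomal protein genes lay apart as HSPA8 did. This median rank was percentile 54.0 to 83.0 on the 8 arrays and 99.5 to 99.7 on treated arrays 3 and 5. On the Mia-PaCa-2 arrays, where 50 such genes had a probe, the median rank was 94.7 to 99.1. The probe of RPS16 lay at 5.40 to 8.17 on the 8 arrays and at 13.27 and 13.89 on treated arrays 3 and 5. Its median in Mia-PaCa-2 was 13.75. For RPL10A these were 4.71 to 7.73, 13.06 and 12.02, and 12.53. Not every member followed the median. RPS3 lay at 8.04 to 8.81 on the 8 arrays and at 8.35 and 8.55 on treated arrays 3 and 5. RPL9 lay at 5.32 to 6.40 and at 5.93 and 4.11. RPL11 was already bright on the 8 arrays, at 11.09 to 12.76. Pairs of probes annotated to 1 gene had a Spearman's rho of -0.0764 to 0.123 between their levels over 152 to 155 pairs on an array, and of 0.0312 to 0.152 on the Mia-PaCa-2 arrays. Levels of different probes are not directly comparable. This limits these values and the ranks of housekeeping genes and markers alike, so none of them settles whether the names hold. EEF1A1, the elongation factor that brings tRNA to the ribosome, had probes that differed between the array sets. Its brighter probe lay at 11.07 to 13.27 on the 8 arrays. The other EEF1A1 probe lay at 10.79, 11.23 and 11.18 on untreated 1, untreated 3 and treated 1, and at 5.80 to 6.87 on the arrays numbered 2, 4 and 5 other than treated 5. A gene name below is the annotation of a probe, and whether the probe reads that transcript on the SK-MEL-28 arrays was not settled.

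**Figure D2:**
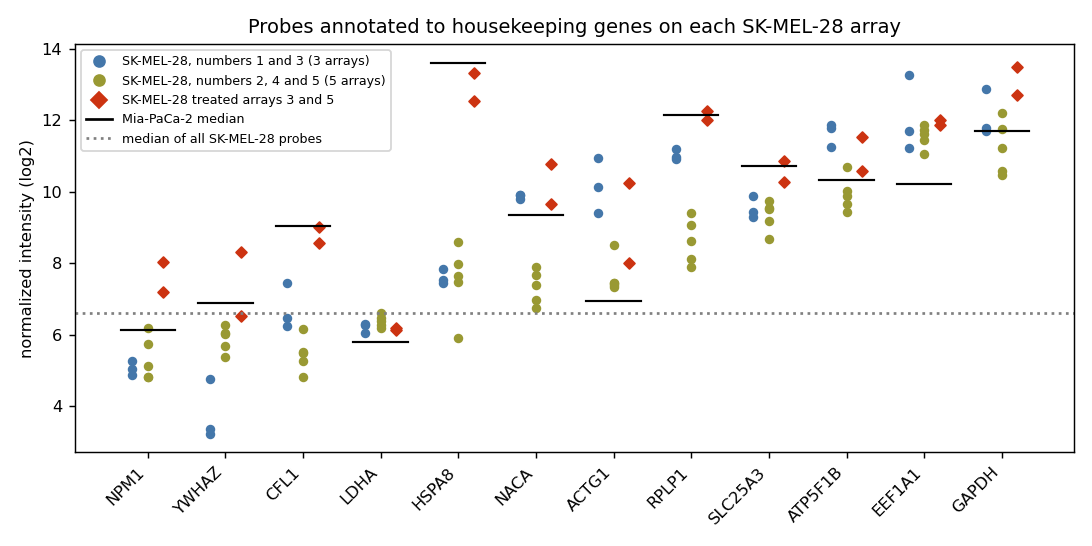
Log2 normalized intensity of the 12 probes annotated to housekeeping genes on each SK-MEL-28 array, with circles for 8 arrays in 2 sets, diamonds for treated arrays 3 and 5, bars for the Mia-PaCa-2 median and a dotted line for the median of all SK-MEL-28 probes (6.61). HSPA8 lies at 5.90 to 8.59 on the 8 arrays and at 12.54 and 13.33 on the 2 diamonds, near the Mia-PaCa-2 median of 13.62.

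The labelled cell type could be checked only in part. Of 36 melanocyte and melanoma markers 3 had a probe, the apoptosis inhibitor BIRC7 and the receptor tyrosine kinases AXL and KIT. On the 8 arrays BIRC7 lay at 4.61 to 5.66, AXL at 5.10 to 5.83 and KIT at 6.49 to 7.35, so that BIRC7 and AXL were below the array median. The pigment and lineage genes MITF, TYR, PMEL, MLANA and SOX10 were on the list, but no probe annotated to them alone had a SK-MEL-28 value. Of the markers of other cells, 5 epithelial and pancreatic ductal genes, 3 fibroblast and endothelial genes and 4 genes restricted to other organs had a probe. None had a mean rank above percentile 90 on the 8 arrays, and 3 of 5, 2 of 3 and 2 of 4 ranked below the array median. Some still outranked KIT, the highest melanocyte marker at percentile 59.2, such as PECAM1 at 80.7 and ESRP1 at 76.25. The lowest of them was SOX9, at percentile 8.16. SOX9, a transcription factor of ductal epithelium, lay at 4.01 to 5.77 on those arrays, at 9.67 on treated array 3 and at 9.93 on treated array 5.

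With the replicate number as a pair, no probe passed the threshold of 0.05 after Benjamini-Hochberg adjustment by limma (0 of 7972), the smallest value being 0.347. Before adjustment 857 probes had a p under 0.05 (10.8% of those tested), 372 higher (4.67%) and 485 lower (6.08%) in treated cells. Without the pairing the fit also called none, with 446 probes at an unadjusted p under 0.05 (5.59%) and a smallest adjusted p of 0.537. In pairs 1, 2 and 4 limma called none of 7868 probes, with 405 at an unadjusted p under 0.05 (5.15%) and a smallest adjusted p of 0.870. The 207 probes on both unadjusted lists had the same direction in both fits. They were 24.2% of the 857 and 51.1% of the 405, and the fits share pairs 1, 2 and 4. In bulk RNA a lower share of some cells and less transcript per cell cannot be told apart.

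The precision bounds what could have been seen. The 95% confidence interval of a probe's change had a median half-width of 0.47 on the log2 scale, and it lay within -1 to 1 for 76.9% of the probes and within -2 to 2 for 96.2%. In pairs 1, 2 and 4 these were 0.52, 74.4% and 97.6%. The median change over all probes was -0.05 in 5 pairs, with 42.7% of probes above 0, and 0.01 in pairs 1, 2 and 4, with 50.8% above 0.

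The pairs differed in how far the treated array lay from its untreated partner. The median absolute difference was 0.19 in pair 1, 0.33 in pair 2 and 0.28 in pair 4, against 0.40 in pair 3 and 0.44 in pair 5. More than 1 log2 unit separated the partners for 3.88% of probes in pair 1, 11.1% in pair 2 and 7.89% in pair 4, against 16.0% in pair 3 and 17.0% in pair 5. Across the 5195 probes of both lines, the difference within a pair followed the level of Mia-PaCa-2 over SK-MEL-28 in pairs 3 and 5, with a Pearson's r of 0.78 and 0.82. In pairs 1, 2 and 4 this r was 0.03, 0.01 and -0.03. The points are probes of the same few arrays, so these r are descriptions. The SK-MEL-28 level left out treated arrays 3 and 5. The untreated arrays thus enter both axes in every pair, and the treated arrays do so in pairs 1, 2 and 4 only. The r of pairs 3 and 5 and those of the other pairs are therefore not built alike. The mean of all 5 pairs still had an r of 0.74, and the mean of pairs 1, 2 and 4 one of 0.00.

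**Figure D3:**
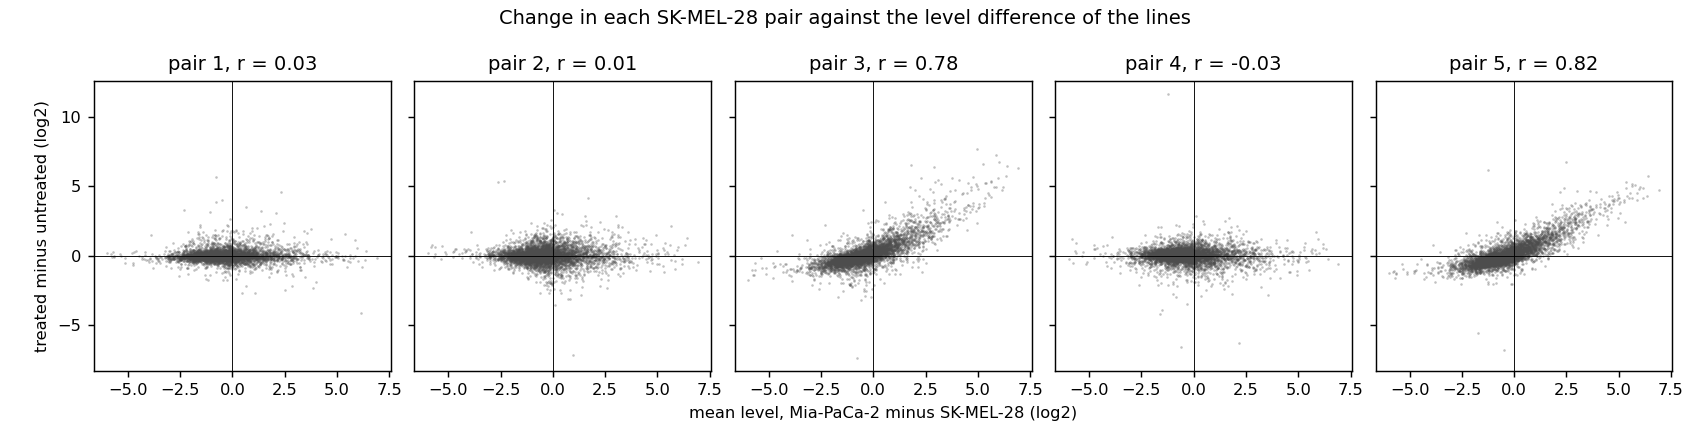
Treated minus untreated log2 intensity of each of 5195 probes in each pair, against the mean level of Mia-PaCa-2 minus that of SK-MEL-28. Pairs 3 and 5 follow a rising line (r of 0.78 and 0.82), while pairs 1, 2 and 4 spread evenly about 0 (r of 0.03, 0.01 and -0.03).

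The pairs shared little among themselves besides this. The differences within pairs 3 and 5 correlated at 0.66 across probes. Every other combination of pairs correlated at 0.01 to 0.13. Of the 7810 probes with a value on all 10 arrays, 944 (12.1%) had the same direction in all 5 pairs, 325 higher (4.16%) and 619 lower (7.93%). These shares belong beside every gene given below as higher or lower in 5 of 5 pairs. The treated and untreated arrays did not overlap for 91 probes (1.17%), 35 higher (0.448%) and 56 lower (0.717%).

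The 15 genes with the smallest p in the 5 pairs did not pass the adjusted threshold (adjusted p of 0.347 to 0.458 by limma). There were 5 with higher and 10 with lower values in treated cells. For 5 of the 15 the groups did not overlap, against 1.17% of all probes, but the genes were chosen by their p on these arrays and nothing is read from that count. HIPK3, RRAS, BRWD1, MXD3 and PRR14 were also among the 15 genes with the smallest p in pairs 1, 2 and 4, where every adjusted p was 0.870.

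The largest of these in pairs 1, 2 and 4 was HIPK3, a serine/threonine kinase of the homeodomain-interacting family. The HIPK3 probe stood at 7.78, 9.92, 7.59, 9.65 and 9.78 on untreated arrays 1 to 5 and at 9.24, 11.64, 9.07, 11.00 and 10.55 on the treated arrays. It was higher in all 5 pairs, although the groups overlapped, because both arrays of a pair lay low in pairs 1 and 3 and high in pairs 2, 4 and 5. The log2 change was 1.36 ± 0.17 (SE, 5 pairs, limma adjusted p = 0.347) and 1.51 ± 0.17 in pairs 1, 2 and 4. In Mia-PaCa-2, fitted without pairs, the same probe had -1.54 ± 0.89, and 0.12 without the untreated Mia-PaCa-2 arrays 4 and 5, which resemble both lines. The difference between the lines, fitted with pairs in both, did not pass (limma adjusted p = 0.569).

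RRAS, a small GTPase related to RAS that acts on integrin adhesion, was the other of the 5 with higher values. Its probe was dim, at 4.72, 3.87, 4.64, 4.39 and 5.28 on the untreated arrays and 5.52, 5.15, 6.15, 5.58 and 6.26 on the treated arrays. All 5 pairs had the same direction, and only the lowest treated array lay under the highest untreated one. The log2 change was 1.15 ± 0.16 (SE, 5 pairs, limma adjusted p = 0.347) and 1.09 ± 0.18 in pairs 1, 2 and 4. With an offset of 50 added to the intensity before the log it was 0.48.

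BRWD1, MXD3 and PRR14 had lower values in treated cells. BRWD1 encodes a bromodomain protein that binds acetylated histones. Its probe stood at 9.34, 9.41, 9.30, 9.13 and 8.78 on the untreated arrays and at 8.28, 8.69, 8.07, 7.57 and 7.55 on the treated arrays, without overlap. The log2 change was -1.16 ± 0.16 (SE, 5 pairs, limma adjusted p = 0.347), and -1.11 ± 0.22 in pairs 1, 2 and 4.

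PRR14, which tethers heterochromatin to the nuclear lamina, also had groups that did not overlap. The PRR14 probe stood at 8.71, 8.92, 8.50, 9.01 and 8.66 on the untreated arrays and at 7.84, 8.01, 7.83, 7.64 and 7.21 on the treated arrays. Its log2 change was -1.05 ± 0.17 (SE, 5 pairs, limma adjusted p = 0.353) and -1.05 ± 0.19 in pairs 1, 2 and 4. In Mia-PaCa-2, BRWD1 had -0.55 ± 0.25 and PRR14 had -0.52 ± 0.24, and without the untreated arrays 4 and 5 of that line -0.32 and -0.28. Neither difference between the lines passed (adjusted p = 0.611 for BRWD1 and 0.612 for PRR14).

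MXD3, a MAX-binding transcription factor that opposes MYC, stood at 7.59, 6.06, 7.57, 6.12 and 6.35 on the untreated arrays and at 6.75, 5.05, 6.09, 5.17 and 4.43 on the treated arrays. It was lower in all 5 pairs, and the groups overlapped because pairs 1 and 3 lay higher on both sides. The log2 change was -1.24 ± 0.20 (SE, 5 pairs, limma adjusted p = 0.353) and -0.93 ± 0.16 in pairs 1, 2 and 4.

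**Figure D4:**
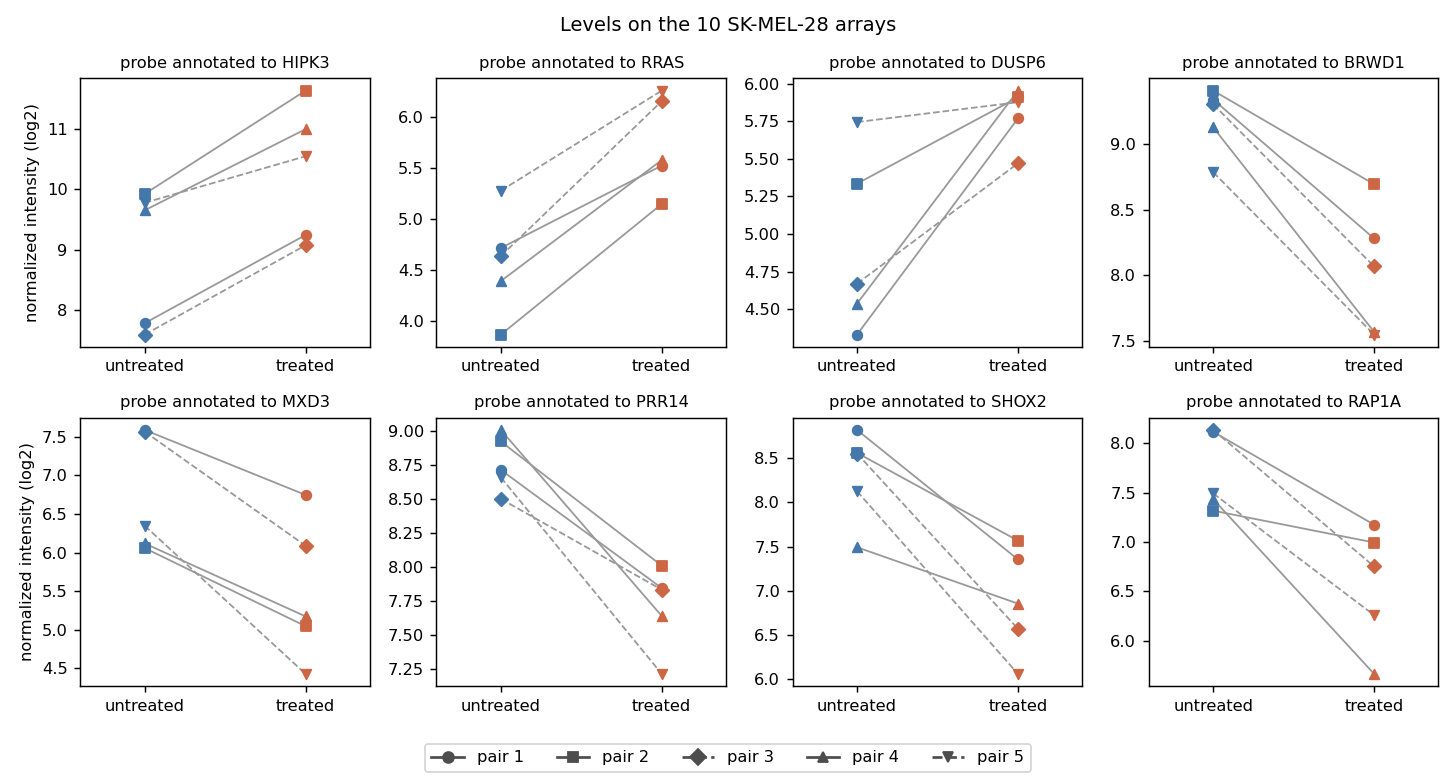
Log2 normalized intensity on untreated and treated arrays for probes annotated to 8 genes, with a line for each pair and dashed lines for pairs 3 and 5. The HIPK3, RRAS and DUSP6 probes lie higher on the treated array in all 5 pairs and the BRWD1, MXD3, PRR14, SHOX2 and RAP1A probes lower, and no gene passed the adjusted threshold.

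The small GTPases RAP2A and RAP1A, relatives of RRAS, had lower values in treated cells. RAP2A stood at 6.66 to 7.60 on the untreated arrays and at 4.67 to 6.81 on the treated arrays (change -1.48 ± 0.27, and -1.60 ± 0.36 in pairs 1, 2 and 4). RAP1A stood at 7.32 to 8.13 and at 5.67 to 7.17, with no overlap (-1.13 ± 0.22, and -1.01 ± 0.31). Both were lower in 5 of 5 pairs. Lower values were also found for the homeobox factor SHOX2 (-1.43 ± 0.24, and -1.03 ± 0.22), the chloride-proton exchanger CLCN3 (-0.94 ± 0.19, and -0.70 ± 0.20) and the histone variant MACROH2A1 (-0.97 ± 0.20, and -0.68 ± 0.18). APIP, an enzyme of methionine salvage that also binds APAF1, had -0.93 ± 0.18 (-0.76 ± 0.21), and the adaptor APBA3 had -0.92 ± 0.18 (-0.99 ± 0.23).

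Of the genes with higher values, SOCS6, a suppressor of cytokine signalling, stood at 5.23 to 6.06 on the untreated arrays and at 6.11 to 6.80 on the treated arrays, with no overlap (0.74 ± 0.14, and 0.72 ± 0.17 in pairs 1, 2 and 4). The monoamine transporter SLC29A4 stood at 5.32 to 6.56 and at 6.77 to 7.55, also with no overlap (0.95 ± 0.19, and 0.90 ± 0.26). HERC6, of the HECT and RCC1 domain family, had 2.24 ± 0.30 over the 4 pairs in which it had a value, while a second HERC6 probe had -1.15. The HERC6 probes thus disagree in direction, and the probe with the higher value could not be fitted in pairs 1, 2 and 4.

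Of the 15 genes with the smallest p in pairs 1, 2 and 4, 7 were higher over 5 pairs and 8 lower, and 9 had a mean level below the array median. The chemokine CCL7 had 1.69 ± 0.30 there, but 0.98 ± 0.40 over 5 pairs, in which pair 5 went the other way. Adenylyl cyclase ADCY4 had 1.28 ± 0.19 in pairs 1, 2 and 4 and a difference near 0 in pairs 3 and 5, with 0.79 ± 0.27 over all 5. The splicing factor LUC7L3 had 1.13 ± 0.20 (0.81 ± 0.21 over 5 pairs), and its level followed the array sets, at 9.19 to 10.72 on the arrays numbered 1 and 3 and 4.84 to 6.66 on those numbered 2, 4 and 5. MDFI, an inhibitor of myogenic factors, had 1.16 ± 0.21 (0.80 ± 0.24).

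Among those with lower values there, NEURL2 had -1.45 ± 0.24 in pairs 1, 2 and 4 and -1.12 ± 0.23 over 5 pairs, with no overlap of the groups. LSM12 had -1.57 ± 0.30 (-1.13 ± 0.29), the checkpoint clamp subunit RAD1 -1.04 ± 0.20 (-0.73 ± 0.21) and the nicotinamide riboside kinase NMRK2 -0.90 ± 0.16 (-0.69 ± 0.16). The anti-Müllerian hormone receptor AMHR2 had -0.93 ± 0.18 and -0.34 ± 0.31. HYI, a hydroxypyruvate isomerase by homology, turned its direction. HYI stood at 6.30 to 7.43 on the untreated arrays, at 6.53, 5.83 and 5.37 on arrays 1, 2 and 4 after treatment, and at 9.65 and 8.69 on treated arrays 3 and 5, so that its change was -1.01 ± 0.17 in pairs 1, 2 and 4 and 0.35 ± 0.64 over 5 pairs.

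The 12 proteasome genes with a probe were split, 6 higher and 6 lower, and none passed. Their median change was 0.06, against -0.05 over all probes, and it was -0.04 in pairs 1, 2 and 4, with 5 higher and 7 lower. PSMB5, which carries the chymotrypsin-like site of the core particle, had a change of -0.05 (-0.06 in pairs 1, 2 and 4). The core subunits PSMA6 and PSMB2 had 0.73 ± 0.30 and 0.92 ± 0.40. PSMB2 stood at 8.69 to 8.90 on the untreated arrays, at 8.70 to 9.05 on arrays 1, 2 and 4 after treatment, and at 10.87 and 10.88 on treated arrays 3 and 5. Without those 2 arrays PSMB2 had 0.10 ± 0.18 and PSMA6 0.15 ± 0.17.

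The lid subunit PSMD8 behaved in the same way. It stood at 4.82 to 5.78 on the untreated arrays, 4.87, 5.55 and 5.69 on arrays 1, 2 and 4 after treatment, and 10.10 and 10.67 on treated arrays 3 and 5. Its change was 1.93 ± 0.95 over 5 pairs and -0.06 ± 0.36 in pairs 1, 2 and 4. PSMG4, an assembly chaperone of the core particle, was the only one of the 4 members with the smallest p to lie lower (-0.45 ± 0.21, and -0.20 ± 0.23).

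Ubiquitin conjugation had 7 of 10 genes higher and a median of 0.10, which was 0.00 in pairs 1, 2 and 4, with 5 on either side. UBE2N, the conjugating enzyme for lysine-63 chains, stood at 5.46 to 6.56 on the untreated arrays, at 5.50, 5.48 and 5.63 on arrays 1, 2 and 4 after treatment, and at 10.37 and 10.57 on treated arrays 3 and 5. The UBE2N change was 1.61 ± 0.90 over 5 pairs and -0.29 ± 0.27 in pairs 1, 2 and 4. The conjugating enzyme UBE2Z kept a negative value in both, -0.52 ± 0.26 and -0.45 ± 0.26. Of 6 deubiquitinases 3 were higher and 3 lower (median 0.01), with USP7, which stabilizes MDM2, at 0.26 ± 0.16 and at 0.44 ± 0.17 in pairs 1, 2 and 4.

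Cell cycle genes gave no common direction. Of 7 G1/S regulators 6 were higher over 5 pairs (median 0.21), and 3 of 7 in pairs 1, 2 and 4 (median -0.04). Cyclin E1, CCNE1, which drives entry into S phase, was lower in 5 of 5 pairs, a direction that 7.93% of all probes shared. CCNE1 stood at 5.58, 5.90, 5.96, 5.73 and 5.32 on the untreated arrays and at 5.57, 5.32, 5.84, 4.83 and 4.77 on the treated arrays, all below the array median of 6.61. The groups overlapped, and the change was -0.43 ± 0.18 (limma adjusted p = 0.458) and -0.50 ± 0.23 in pairs 1, 2 and 4. The cyclin D partner CDK4 had 0.79 ± 0.55 over 5 pairs, -0.33 ± 0.18 in pairs 1, 2 and 4, and a second probe at 1.50.

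Of 14 G2 and M phase genes 5 were higher and 9 lower (median -0.12), and 7 lay on either side in pairs 1, 2 and 4 (median -0.01). The mitotic kinase AURKB stood at 6.27 to 6.71 on the untreated arrays and at 5.65 to 6.42 on the treated arrays. It was lower in 5 of 5 pairs, by -0.04 in pair 3 (-0.40 ± 0.16, and -0.36 ± 0.16 in pairs 1, 2 and 4). The kinetochore subunit SPC25 was lower in 4 of 5 pairs (-0.61 ± 0.24, and -0.56 ± 0.35). WEE1, the kinase that holds CDK1 inactive, had 1.15 ± 0.46 and CDK1 itself 0.65 ± 0.27, and both were smaller in pairs 1, 2 and 4, at 0.77 ± 0.65 and 0.22 ± 0.26.

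For the 9 DNA replication and repair genes the median turned with the choice of pairs, from 0.33 with 6 higher to -0.22 with 1 higher in pairs 1, 2 and 4. The helicase subunit MCM2 stood at 5.15 to 6.57 on the untreated arrays, at 5.02, 4.78 and 5.66 on arrays 1, 2 and 4 after treatment, and at 8.72 and 8.99 on treated arrays 3 and 5. Its change was 0.87 ± 0.69 and, in pairs 1, 2 and 4, -0.55 ± 0.26. Thymidine kinase TK1 went from 1.24 ± 0.65 to -0.11 ± 0.23. POLE, the catalytic subunit of the leading-strand polymerase, was lower in 5 of 5 pairs (-0.48 ± 0.16, and -0.31 ± 0.18).

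The cell death lists held few measured genes. All 5 apoptosis-promoting genes with a probe had negative values in the 5 pairs and in pairs 1, 2 and 4. Of all probes 42.7% and 50.8% were above 0 in these fits. The medians of the list were -0.26 and -0.23, and none had an unadjusted p under 0.05 by limma. BAX was near 0 at -0.01 ± 0.16 (-0.16 ± 0.19 in pairs 1, 2 and 4), and BMF had -0.11 ± 0.18 (-0.22 ± 0.24). TRADD, the adaptor of the TNF receptor, was lower in 5 of 5 pairs (-0.26 ± 0.13, and -0.23 ± 0.16 in pairs 1, 2 and 4). The mitochondrial protease HTRA2 had -0.37 ± 0.20 (-0.57 ± 0.24), and the initiator caspase CASP8 had -0.32 ± 0.22 (-0.36 ± 0.32). The median of this list within single pairs ran from -0.74 in pair 4 to 0.03 in pair 5. Of 3 apoptosis-inhibiting genes 2 were higher (median 0.01), and of 7 p53 targets 3 were higher (median -0.01).

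Ribosomal protein, splicing, translation and chaperone genes had positive medians over 5 pairs, and these medians were smaller without the 2 treated arrays that carried the Mia-PaCa-2 profile. Of 22 ribosomal protein genes 19 were higher with a median of 0.69, and 11 of 22 with a median of 0.00 in pairs 1, 2 and 4. The median of this list was 0.01 in pair 1, 0.28 in pair 2 and -0.17 in pair 4, against 1.05 in pair 3 and 2.38 in pair 5. RPS16, of the small subunit, stood at 5.40 to 8.17 on the untreated arrays, at 5.91 to 6.03 on arrays 1, 2 and 4 after treatment, and at 13.27 and 13.89 on treated arrays 3 and 5. RPL11, which also binds MDM2, was bright throughout, with 0.69 ± 0.23 over 5 pairs and 0.46 ± 0.23 in pairs 1, 2 and 4.

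All 10 translation factors were higher over 5 pairs (median 0.53), but 4 of 10 in pairs 1, 2 and 4 (median -0.02). EIF3M, a subunit of the initiation factor eIF3, was higher in 5 of 5 pairs, with 1.02 ± 0.33 and, in pairs 1, 2 and 4, 0.51 ± 0.26. The poly(A)-binding protein PABPC1 had 0.65 ± 0.29 and 0.94 ± 0.38. All 15 splicing genes were higher (median 0.27), and 9 of the 14 that could be fitted in pairs 1, 2 and 4 (median 0.10).

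Among 5 heat shock and chaperone genes all were higher (median 0.61), and 4 of 5 in pairs 1, 2 and 4 (median 0.45). HSPA8 had 2.36 ± 0.78 over 5 pairs and 0.78 ± 0.45 in pairs 1, 2 and 4, where pair 2 alone held a difference over 1. The chaperonin subunit CCT5 had 0.89 ± 0.28 and 0.54 ± 0.31. Of 6 genes of the unfolded protein response and ATF4 pathway 4 were higher in both (medians 0.21 and 0.05), with ATF4 at 0.74 ± 0.39 and 0.05 ± 0.31. PHGDH, the first enzyme of serine synthesis, had 0.21 ± 0.16 and 0.43 ± 0.16. EIF2S1, the alpha subunit of eIF2 and also a member of the translation list, went the other way in pairs 1, 2 and 4 (-1.43 ± 0.33), against 0.38 ± 0.88 over 5 pairs.

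**Figure D5:**
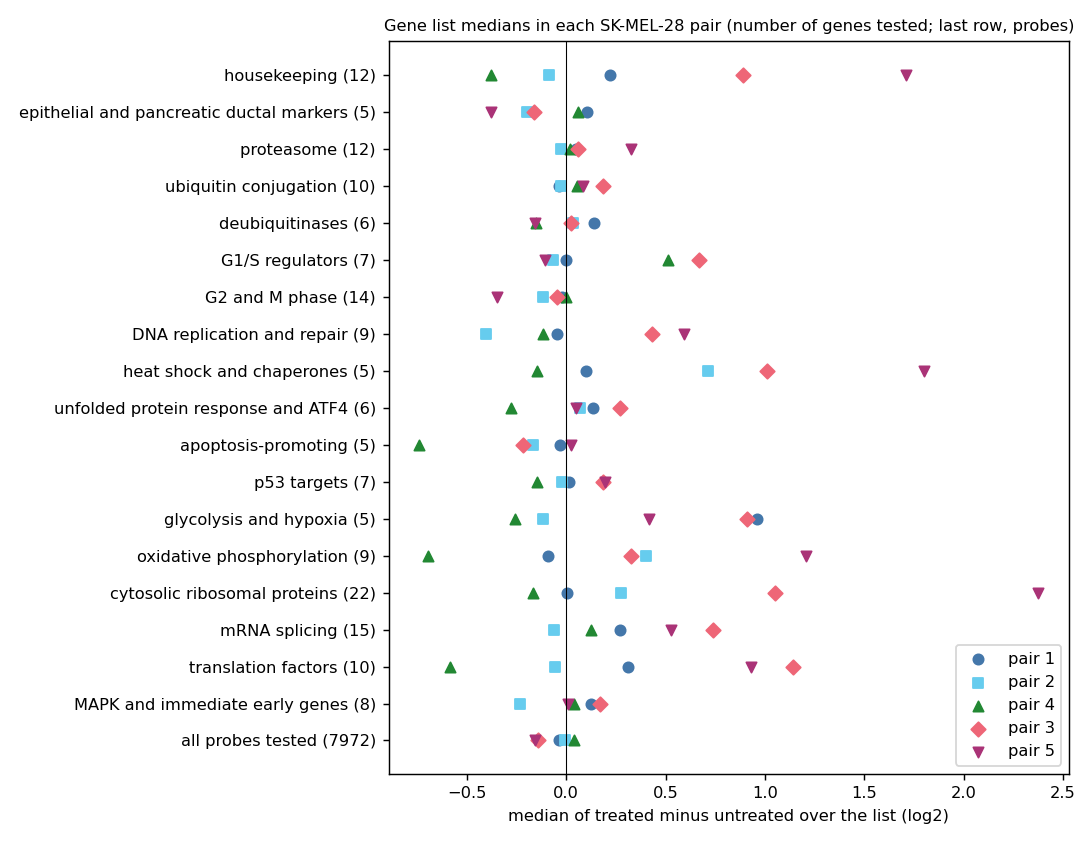
Median of treated minus untreated log2 intensity over each gene list with at least 5 measured genes, in each of the 5 pairs, with all 7972 tested probes in the last line. For ribosomal proteins pairs 3 and 5 lie at 1.05 and 2.38 and pairs 1, 2 and 4 at 0.01, 0.28 and -0.17.

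Of the 8 MAP kinase and immediate early genes 4 were higher and 4 lower (median 0.10). In pairs 1, 2 and 4 there were 3 higher and 5 lower (median -0.02). The one with the smallest p over 5 pairs was DUSP6. Its probe stood at 4.33, 5.34, 4.67, 4.54 and 5.74 on the untreated arrays and at 5.77, 5.91, 5.47, 5.95 and 5.88 on the treated arrays. DUSP6 was thus dim on every array, higher in 5 of 5 pairs, a direction that 4.16% of all probes shared, and the treated arrays lay close together while the untreated ones spread. The log2 change was 0.87 ± 0.23 (SE, 5 pairs, limma adjusted p = 0.458) and 1.14 ± 0.24 in pairs 1, 2 and 4. With the offset of 50 it was 0.37. MAP2K2, the kinase upstream of ERK, had -0.38 ± 0.21 (-0.60 ± 0.25), and the immediate early receptor NR4A1 had -0.70 ± 0.35 (-0.56 ± 0.50). The list members ETV4 and ETV5 had -0.04 ± 0.21 (-0.08 ± 0.21) and 0.56 ± 0.38 (0.05 ± 0.40).

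Single members of other lists differed in which pairs carried their change. Interleukin IL6 stood at 4.50 to 6.12 on the untreated and 5.49 to 6.99 on the treated arrays, higher in 5 of 5 pairs (0.87 ± 0.26, and 0.60 ± 0.31 in pairs 1, 2 and 4). DYNC1LI1, a light intermediate chain of cytoplasmic dynein, was higher in 5 of 5 pairs (1.88 ± 0.53, and 0.79 ± 0.23), with 9.33 and 9.64 on treated arrays 3 and 5 and 5.28 to 7.36 on the others. The autophagy receptor SQSTM1, which binds ubiquitin, had 2.11 ± 0.96 and 0.71 ± 0.56, and it stood at 2.73 on untreated array 5 and 9.47 on its treated partner. In glycolysis, GAPDH had 0.54 ± 0.39 and 0.03 ± 0.43, with 1.18 in pair 1 and 0.91 in pair 3. Its largest difference was in pair 5, with 11.77 on the untreated and 13.50 on the treated array. GAPDH was lower on the treated array in pairs 2 and 4, with 12.21 untreated and 11.22 treated in pair 4. Of 9 oxidative phosphorylation genes 6 were higher (median 0.09, and 0.00 in pairs 1, 2 and 4).

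The treatment effect in SK-MEL-28 was set against that in Mia-PaCa-2 over the 5321 probes tested in both lines. No difference between the effects passed by limma (0 of 5321), the smallest adjusted p being 0.138, and before adjustment 434 had a p under 0.05 (8.16%). Of these 385 had the higher change in SK-MEL-28 (7.24%) and 49 the lower (0.921%). These counts use pairs in both lines, and the replicate numbers of Mia-PaCa-2 were not shown to pair its arrays. With pairs in SK-MEL-28 alone 439 probes had a p under 0.05 before adjustment, 399 of them higher, and with no pairs 291. The 2 arrays of SK-MEL-28 that resemble both lines are treated and the 2 of Mia-PaCa-2 are untreated. Without these 4 arrays there were 268 with pairs in SK-MEL-28 alone, 134 higher and 134 lower, and 161 with no pairs, and no adjusted p was under 0.498 in either. Among named genes the smallest p was that of MUC1, a membrane mucin of epithelia, with 0.57 ± 0.15 in SK-MEL-28 and -0.93 ± 0.23 in Mia-PaCa-2 (difference adjusted p = 0.201). MUC1 stood at 5.79 to 7.03 on the untreated and 6.16 to 7.86 on the treated SK-MEL-28 arrays, and it was higher in 5 of 5 pairs, with 0.42 ± 0.16 in pairs 1, 2 and 4.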

How the data were processed

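The deposited series table holds the authors' normalized intensities of CodeLink 1-colour arrays on a linear scale, and the per-sample files hold their intensity values before it. No source used here states the normalization, background correction or filter. Both rank the probes of each array alike. The table lacks 212 values of the SK-MEL-28 arrays.

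Groups and replicate numbers came from the sample titles. Log2 values of probes with a value on at least 3 arrays a side were fitted with limma 3.58.1 (lmFit, eBayes) in R 4.3.3, with the replicate number as a block. Benjamini-Hochberg adjustment ran over all probes tested, with a threshold of 0.05. Same-numbered treated and untreated arrays deviated together from their group means (correlation 0.247 to 0.602 in the 5 pairs), so the numbers were taken to pair them. Only 3 of the 5 treated arrays correlated best with their own number, and arrays of 1 set also deviated together. A missing value drops its pair from that probe's fit. Changes given for Mia-PaCa-2 alone came from a fit without a block. The difference between the lines was fitted over all 22 arrays with the replicate numbers of each line as blocks. In Mia-PaCa-2 same-numbered arrays correlated at -0.187 to 0.437, so fits without its block stand beside it. Alternatives left out the block, arrays or pairs, started from the per-sample intensities, or altered the offset, the filter, the array weights or the variance trend. Python 3.11.15 with pandas 2.3.3, NumPy 2.4.6, SciPy 1.17.1 and matplotlib 3.10.9 made the tables and figures.

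Of the SK-MEL-28 probes 3556 had 1 gene symbol in the platform annotation, 152 several and 4267 were unnamed here. Symbols were looked up by Entrez number in RefSeq's gene table, and 0 had to be updated. Where a gene had several probes, the brightest by mean stood for it. Named were the 15 genes with the smallest p over 5 pairs and over pairs 1, 2 and 4, up to 4 members with the smallest p of each of 26 gene lists, and housekeeping, ribosomal and melanocyte genes by level. Other list members named, such as PSMB5, EIF2S1 and the second probes, were chosen after their values were seen. The members and lists were chosen with earlier results of these data known, so lists are described by counts and medians without a test.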

Additional observations from a re-analysis of the deposited data

Results flagged for a closer look

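In 138 groups of arrays (69 genes, treated and untreated) the highest or lowest array was compared with the range of its group, by a criterion under which chance marks about 5% of groups. It marked 7. PDX1, a pancreatic transcription factor, stood at 8.16 on untreated array 4 and at 5.42 to 6.14 on the other untreated arrays. DYNC1LI1 stood at 5.28 on untreated array 2 (others 5.95 to 6.16). On untreated array 5, RPS16 stood at 8.17 (others 5.40 to 5.94) and HTRA2 at 7.48 (others 7.52 to 7.54). On treated array 2, MAP2K2 stood at 4.67 (others 5.91 to 6.23), PSMB5 at 5.30 (others at least 5.81) and TRADD at 7.13 (others 6.29 to 6.38).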

How the results depend on the processing

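No probe passed at an adjusted p under 0.05 in any of the 16 other settings, where the smallest adjusted p ran from 0.158 to 1.00. The unadjusted count of 857 was 446 with no replicate block and 405 in pairs 1, 2 and 4. Without treated arrays 3 and 5, but with their untreated partners kept, it was 206 with no block. The same arrays gave 470 with the set of arrays as a block, a setting chosen after the data were seen. Leaving out 1 pair gave 434 (without pair 5) to 907, with 462 without pair 3. Fewer arrays enter these counts. The other settings gave 658 to 922. The difference between the lines called 0 probes in its 4 alternatives, of which the 2 with pairs in SK-MEL-28 alone were chosen after the pairing check.

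Of the 69 genes followed through the settings, 11 turned their direction in at least 1, in 35 of the comparisons made, while 1044 comparisons kept direction and side of the threshold. Without treated arrays 3 and 5, values with the pair block were -1.01 for HYI (0.35 with all arrays), -1.43 for EIF2S1 (0.38), -0.29 for UBE2N, -0.55 for MCM2, -0.11 for TK1, -0.33 for CDK4 and -0.0594 for PSMD8. Without these arrays and with no block they were -0.95 for HYI, -1.21 for EIF2S1, -0.36 for UBE2N, -0.61 for MCM2, -0.0995 for TK1, -0.34 for CDK4, -0.0717 for PSMD8, -0.48 for RPL10A, -0.20 for RPS16, -0.0922 for GAPDH and -0.0393 for ATF4. Without these arrays and with the array sets as a block, in the same order, they were -0.89, -1.31, -0.39, -0.65, -0.12, -0.29, -0.0912, -0.38, -0.24, -0.0337 and -0.10. Array weights gave -0.0076 for HYI and -0.36 for EIF2S1. Leaving out 1 pair gave -0.16 (without pair 3 or 5) to 0.75 for HYI and -0.50 (without pair 3) to 1.05 (without pair 1) for EIF2S1. The cause was not tested beyond leaving these arrays out. With the offset of 50, which compresses low values, 29 of the 69 changes were over 1.5 times smaller. List medians moved by less than the spread between pairs in 269 comparisons and by more in 19. Arrays with the housekeeping median under percentile 75 numbered 1, and 2 by the per-sample intensities. The pairing changed no call.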
